A study of Homo sapiens with 14 samples.

Results

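Transcripts of 10 receptor tyrosine kinases, MET, KIT, PDGFRA, FGFR1, FGFR3, IGF1R, INSR, ERBB2, EGFR and AXL, were followed in HEK293T cells given a miR-34a duplex. They were taken by symbol from a table of 63140 genes, and all 10 had enough reads to be among the 18321 genes tested. HEK293T derives from human embryonic kidney and expresses the large T antigen of SV40. Each group was transfected with 1 RNA duplex, and RNA was collected after 24 h. The miR-34a-RS group (4 libraries, replicates 1, 2, 3 and 5) received miR-34a in which guide residues 13 and 14 were rSpacer, an abasic residue with no base to pair. The miR-34a-WT group (5 libraries) received the unmodified miR-34a duplex, and the control group (5 libraries) received AllStars, a commercial negative control siRNA. All groups share the cell line and the transfection, and the duplexes were delivered to cells from outside rather than expressed from a gene. The design addresses how far bases outside the seed contribute to repression by a microRNA.

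Receptor tyrosine kinases span the plasma membrane, bind a growth factor outside the cell and phosphorylate tyrosines on themselves, which docks adaptors that start the RAS-ERK and PI3K pathways. A microRNA guides an Argonaute protein to complementary sites, mostly in 3′ UTRs, through its seed near the 5′ end, and targeted transcripts are translated less and degraded. MET, AXL, KIT and PDGFRA have been studied as miR-34a targets in human tumour cells.

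Library totals were 22.24 to 36.26 M counts, and the common biological coefficient of variation between libraries of a group was 0.062. All 9 markers of HEK293T cells were detected in every group, with summed levels of 545 to 577 CPM (read counts scaled for library size) with miR-34a-RS, 533 to 593 CPM with miR-34a-WT and 597 to 635 CPM in control. Among markers of other cells, 2 of 5 fibroblast markers averaged at least 1 CPM, COL1A2 had no count, and no endothelial marker reached that level. The summed fibroblast markers had 28.0 to 34.0 CPM with miR-34a-RS, 27.3 to 31.9 CPM with miR-34a-WT and 24.8 to 34.1 CPM in control. COL3A1 among them was lower with both duplexes, at 1.75 CPM with miR-34a-RS and 1.52 CPM with miR-34a-WT, against 2.37 CPM in control, and its part in the results was not tested. COL1A1, which holds most of the summed level, had 29.8 CPM with miR-34a-RS, 28.0 CPM with miR-34a-WT and 27.7 CPM in control. It passed neither test against control (adjusted p = 0.313 and 0.857 in edgeR), and LUM, at under 1 CPM, did not pass either. In bulk RNA, fewer cells that express a gene and less RNA per cell cannot be told apart. The labels do not say whether replicates came from separate cultures, so the p-values rest on the spread between libraries, and this may be only technical.

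The guide is shown first because every site below is read against it, with its seed, positions 2 to 8 from the 5′ end, in capitals. The second line is the same guide with the residues that miR-34a-RS lacks in capitals. The mature sequence is that of RefSeq on GRCh38.p14, chr1:9151735-9151756, minus strand.
hsa-miR-34a-5p, seed: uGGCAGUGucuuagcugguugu
hsa-miR-34a-5p, positions 13 and 14: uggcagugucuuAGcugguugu

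Seed matches were searched on the transcript strand of 1 3′ UTR per gene, as 8mer (CACTGCCA), 7mer-m8 (CACTGCC), 7mer-A1 (ACTGCCA) or 6mer (ACTGCC), each position counted once under its longest match. The supplementary motif AGCT, the complement of guide positions 13 to 16, was searched upstream of 8mer and 7mer-m8 matches. In 3′ UTRs of transcripts with a consensus coding sequence (CCDS), a choice made after the data were seen, 17.1% of 13413 tested genes held an 8mer or 7mer-m8 match and 1.54% also had AGCT at 1 to 15 bases. Of the 10 receptors, KIT, MET, PDGFRA, FGFR1, INSR and AXL held such a match, IGF1R and ERBB2 held only 6mers, and FGFR3 and EGFR held none of these letters. The sites below are from GENCODE 29 on GRCh38, with the seed match, and AGCT where it lies in range, in capitals. They show that the receptors with the largest falls and 2 receptors that did not pass the test carry the same letters.
MET, chr7:116796152-116796181, plus strand: cacactttgtccaatggttttttCACTGCC
MET, chr7:116798266-116798295, plus strand: tcttctaagaattagatacttgtCACTGCC
KIT, chr4:54739540-54739569, plus strand: ggctcccacaggagtgggaaaaCACTGCCA
KIT, chr4:54740036-54740065, plus strand: caaaacaaaaaactccccttcctCACTGCC
PDGFRA, chr4:54297948-54297977, plus strand: aaaacatttatgacaAGCTgtatCACTGCC
AXL, chr19:41259926-41259955, plus strand: ccctctcaggatccaAGCTaagCACTGCCA
INSR, chr19:7113900-7113929, minus strand: cttgctgctcttgtacttttaggCACTGCC

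The 2 MET matches start at bases 52 and 2166 of a 3′ UTR of 2262 bases, near its opposite ends. The KIT matches start at bases 1006 and 1503 of 2158. In CCDS 3′ UTRs, PDGFRA and AXL are the 2 receptors with the supplementary motif, 4 bases upstream in PDGFRA and 3 bases upstream in AXL, while no match in MET, KIT, FGFR1 or INSR has it in range. PDGFRA also holds a 7mer-A1 and a 6mer, and INSR a 7mer-A1. The longest annotated 3′ UTR gives other matches for ERBB2 and FGFR1. For ERBB2 it belongs to a transcript annotated for nonsense-mediated decay, and it adds 1 8mer and 3 7mer-m8 matches, of which 2 have AGCT in range, 8 bases upstream of the 8mer and 1 base upstream of a 7mer-m8. For FGFR1 it adds a 7mer-A1 and a 6mer. A match describes the letters of the transcript and is not a measured binding site.

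Levels were compared between genes per kilobase of exon. In control cells the order was FGFR3 (18.4 CPM per kb), MET (10.2), IGF1R (8.48), ERBB2 (7.63), FGFR1 (5.62), KIT (5.13), INSR (3.80), EGFR (1.80), PDGFRA (0.156) and AXL (0.0747). MET thus was the second in control, and was the fifth with either duplex, at 3.91 CPM per kb with miR-34a-RS and 3.98 with miR-34a-WT. MET made up 8.49% ± 0.99 of the summed length-scaled level of the 10 receptors with miR-34a-RS and 8.34% ± 0.39 with miR-34a-WT, against 16.6% ± 1.28 in control (SD, n = 4, 5 and 5). The summed level itself was 46.1 ± 1.33 CPM per kb with miR-34a-RS, 47.7 ± 1.60 with miR-34a-WT and 61.2 ± 1.93 in control. FGFR3 alone made up 40.1% with miR-34a-RS, 42.0% with miR-34a-WT and 29.96% in control. Several neighbours in this order lie within each other's spread, among them IGF1R and ERBB2, whose levels with miR-34a-RS were 6.41 and 6.45 CPM per kb. Scaling by the longest transcript instead of all exons raises FGFR1 and ERBB2 past MET in control, at 12.5 and 15.98 CPM per kb.

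**Figure D1:**
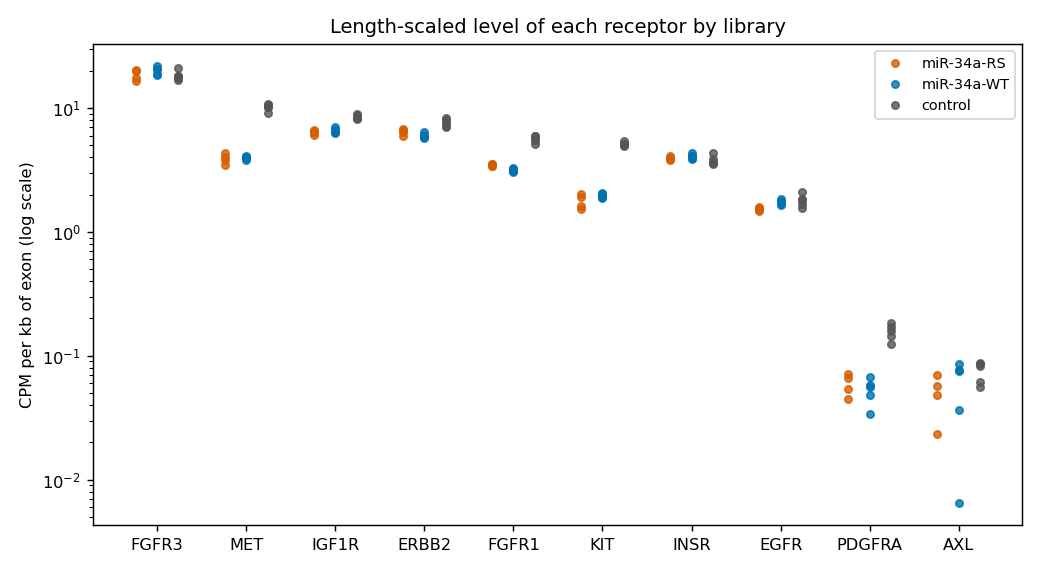
Level of each receptor per library, in CPM per kb of exon on a log axis, with miR-34a-RS, miR-34a-WT and control libraries side by side for each gene. The MET and KIT points of both duplexes lie below all their control points, while the group means of PDGFRA and AXL lie more than 10 times below those of the other receptors.

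With miR-34a-WT, 6 of the 10 receptors fell against control, MET, KIT, PDGFRA, FGFR1, IGF1R and ERBB2, where 40.2% of all tested genes passed the test and 21.3% fell. None of the 10 rose at an adjusted p under 0.05, where 18.9% of all tested genes rose, and FGFR3 alone was higher at an unadjusted p under 0.05. Rose and fell are used of an adjusted p under 0.05. The median log2 fold change was -0.39 over the receptors and -0.02 over all tested genes. With miR-34a-RS, the same 6 receptors and EGFR fell against control, where 34.6% of all tested genes passed and 18.4% fell. None rose, where 16.2% of all tested genes rose, and none was higher at an unadjusted p under 0.05. The medians were -0.50 over the receptors and -0.01 over all tested genes. Both comparisons use the same 5 control libraries, so their resemblance is in part built in.

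MET (ENSG00000105976, chr7:116672390-116798386, plus strand, GRCh38) encodes the receptor of hepatocyte growth factor, which drives scattering and invasion of epithelial cells. Its level was 30.3, 28.5, 24.4 and 26.8 CPM in the miR-34a-RS libraries and 29.1, 28.1, 27.0, 27.6 and 28.2 CPM in the miR-34a-WT libraries, against 74.8, 75.4, 71.7, 71.9 and 64.2 CPM in control. The highest library of either duplex lay at less than 50% of the lowest control library. The log2 fold change was -1.38 with miR-34a-RS (SE 0.06, adjusted p = 3.78e-15 in edgeR's quasi-likelihood test, Benjamini-Hochberg over all genes) and -1.36 with miR-34a-WT (SE 0.06, adjusted p = 8.45e-16), which leaves 38.3% and 39.1% of the control level. Counted from the lowest fold change of 18321 genes, MET ranked 53 with miR-34a-RS and 88 with miR-34a-WT.

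KIT (ENSG00000157404, chr4:54657918-54740715, plus strand) encodes the receptor of stem cell factor, needed by melanocytes, germ cells, mast cells and blood stem cells. Its level was 11.3, 10.7, 8.56 and 9.04 CPM with miR-34a-RS and 11.5, 11.2, 10.7, 10.4 and 10.9 CPM with miR-34a-WT, against 30.3, 28.5, 28.4, 27.6 and 27.9 CPM in control. The duplex libraries and the control libraries did not overlap, and the 2 lowest values were miR-34a-RS replicates 3 and 5. KIT fell by 1.53 (SE 0.07, adjusted p = 1.20e-14) on the log2 scale with miR-34a-RS and by 1.38 (SE 0.07, adjusted p = 1.08e-14) with miR-34a-WT. It ranked 29 from the lowest fold change with miR-34a-RS and 80 with miR-34a-WT.

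PDGFRA (ENSG00000134853, chr4:54229097-54298247, plus strand), a receptor of platelet-derived growth factors known from mesenchymal and glial precursor cells, was expressed at a low level. It had 0.695, 0.526, 0.439 and 0.642 CPM with miR-34a-RS and 0.658, 0.330, 0.567, 0.466 and 0.540 CPM with miR-34a-WT, against 1.22, 1.67, 1.78, 1.53 and 1.39 CPM in control. These values rest on 16 to 23 reads per library with miR-34a-RS, 10 to 17 with miR-34a-WT and 31 to 60 in control, and the control libraries all lay above the others. PDGFRA fell by 1.41 (SE 0.19, adjusted p = 1.59e-06) on the log2 scale with miR-34a-RS and by 1.58 (SE 0.18, adjusted p = 1.43e-07) with miR-34a-WT. Its rank from the lowest fold change was 48 with miR-34a-RS and 35 with miR-34a-WT.

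FGFR1, a receptor of fibroblast growth factors, fell less. It had 47.4, 48.7, 49.2 and 46.9 CPM with miR-34a-RS and 43.4, 44.8, 41.9, 45.2 and 43.4 CPM with miR-34a-WT, against 71.6, 81.7, 76.5, 76.1 and 82.8 CPM in control. The 3 groups did not overlap, with miR-34a-RS between the other 2. The log2 fold change was -0.69 with miR-34a-RS (SE 0.05, adjusted p = 2.41e-11) and -0.83 with miR-34a-WT (SE 0.05, adjusted p = 2.01e-13). FGFR1 shares 138 exon bases with LETM2 on the opposite strand, which the unstranded kit cannot separate. LETM2 had 4.53 to 6.56 CPM in all libraries and did not pass either test.

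IGF1R and ERBB2, the 2 receptors whose matches are 6mers only, fell by smaller amounts. IGF1R, the receptor of insulin-like growth factors that promotes growth and survival, had 93.5, 89.5, 89.6 and 84.7 CPM with miR-34a-RS and 97.4, 87.6, 89.9, 92.9 and 92.5 CPM with miR-34a-WT, against 116, 124, 116, 122 and 114 CPM in control. Its log2 fold change was -0.41 with miR-34a-RS (SE 0.05, adjusted p = 1.18e-07) and -0.36 with miR-34a-WT (SE 0.04, adjusted p = 2.06e-07), with no overlap with control. ERBB2, the HER2 protein, has no known ligand of its own and pairs with other receptors of its family. It had 61.5, 66.0, 69.1 and 69.6 CPM with miR-34a-RS and 60.5, 62.9, 59.7, 61.4 and 65.8 CPM with miR-34a-WT, against 73.0, 83.0, 74.2, 78.4 and 85.4 CPM in control. All control libraries lay above the rest, and ERBB2 fell by 0.24 (SE 0.05, adjusted p = 8.50e-04) on the log2 scale with miR-34a-RS and by 0.34 (SE 0.05, adjusted p = 5.00e-06) with miR-34a-WT. ERBB2 overlaps PGAP3 and MIEN1 on the opposite strand over 194 and 571 exon bases. PGAP3, at 9.45 to 13.8 CPM, also fell, by 0.22 (adjusted p = 0.0279) with miR-34a-RS and by 0.27 (adjusted p = 0.00407) with miR-34a-WT. MIEN1, at 22.9 to 29.2 CPM, did not pass, with 0.08 (adjusted p = 0.324) with miR-34a-RS and 0.12 (adjusted p = 0.0820) with miR-34a-WT. The part of either gene in the ERBB2 values was not tested.

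INSR, FGFR3, EGFR and AXL did not pass the test with miR-34a-WT. INSR, the insulin receptor, has a 7mer-m8 match like MET, and had 41.4, 42.7, 39.8 and 40.4 CPM with miR-34a-RS and 42.8, 40.9, 41.5, 45.1 and 42.8 CPM with miR-34a-WT, against 37.4, 45.6, 36.9, 40.8 and 38.1 CPM in control. The groups overlapped, and the log2 difference from control was 0.05 with miR-34a-RS (adjusted p = 0.583) and 0.10 with miR-34a-WT (95% interval -0.01 to 0.21, adjusted p = 0.155). That interval excludes a fall of the size seen for MET. FGFR3, a second fibroblast growth factor receptor and the most abundant of the 10 per kilobase, had 79.6, 85.3, 96.1 and 98.6 CPM with miR-34a-RS and 89.4, 90.7, 99.9, 101 and 106 CPM with miR-34a-WT, against 82.1, 87.7, 85.3, 88.5 and 101 CPM in control. The groups overlapped over most of their range, with log2 differences of 0.02 (SE 0.07, adjusted p = 0.874) with miR-34a-RS and 0.13 (SE 0.06, adjusted p = 0.100) with miR-34a-WT. The FGFR3 difference with miR-34a-WT passed in 4 alternatives. It was 0.13 with the replicate block (SE 0.04, adjusted p = 0.00267), where the numbers pair these groups only in part. Without the low-count filter it was 0.14 (adjusted p = 0.0387). It was 0.18 both without control replicate 5 (adjusted p = 0.0212) and without miR-34a-WT replicate 2 (adjusted p = 0.0410).

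EGFR, the epidermal growth factor receptor, had 19.9, 19.1, 18.4 and 19.2 CPM with miR-34a-RS and 23.2, 20.8, 21.0, 21.9 and 22.1 CPM with miR-34a-WT, against 23.1, 26.4, 21.2, 22.8 and 19.4 CPM in control. All miR-34a-RS libraries lay below all miR-34a-WT libraries, while control libraries spread over both. EGFR fell by 0.24 (SE 0.07, adjusted p = 0.00665) on the log2 scale with miR-34a-RS, a call that is lost without control replicate 2 (-0.16, adjusted p = 0.0535). With miR-34a-WT the difference was -0.06 (95% interval -0.19 to 0.08, adjusted p = 0.520). AXL, a receptor of the vitamin K-dependent ligand GAS6, was close to the detection limit, with 4, 11, 9 and 10 reads with miR-34a-RS and 10, 12, 1, 6 and 14 reads with miR-34a-WT, against 13, 10, 15, 13 and 7 reads in control. Its groups overlapped, and the log2 differences of -0.60 with miR-34a-RS (adjusted p = 0.242) and -0.42 with miR-34a-WT (95% interval -1.17 to 0.32, adjusted p = 0.381) leave both no change and a fall as large as 50% inside the interval. A change of AXL was not detectable at this depth.

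**Figure D2:**
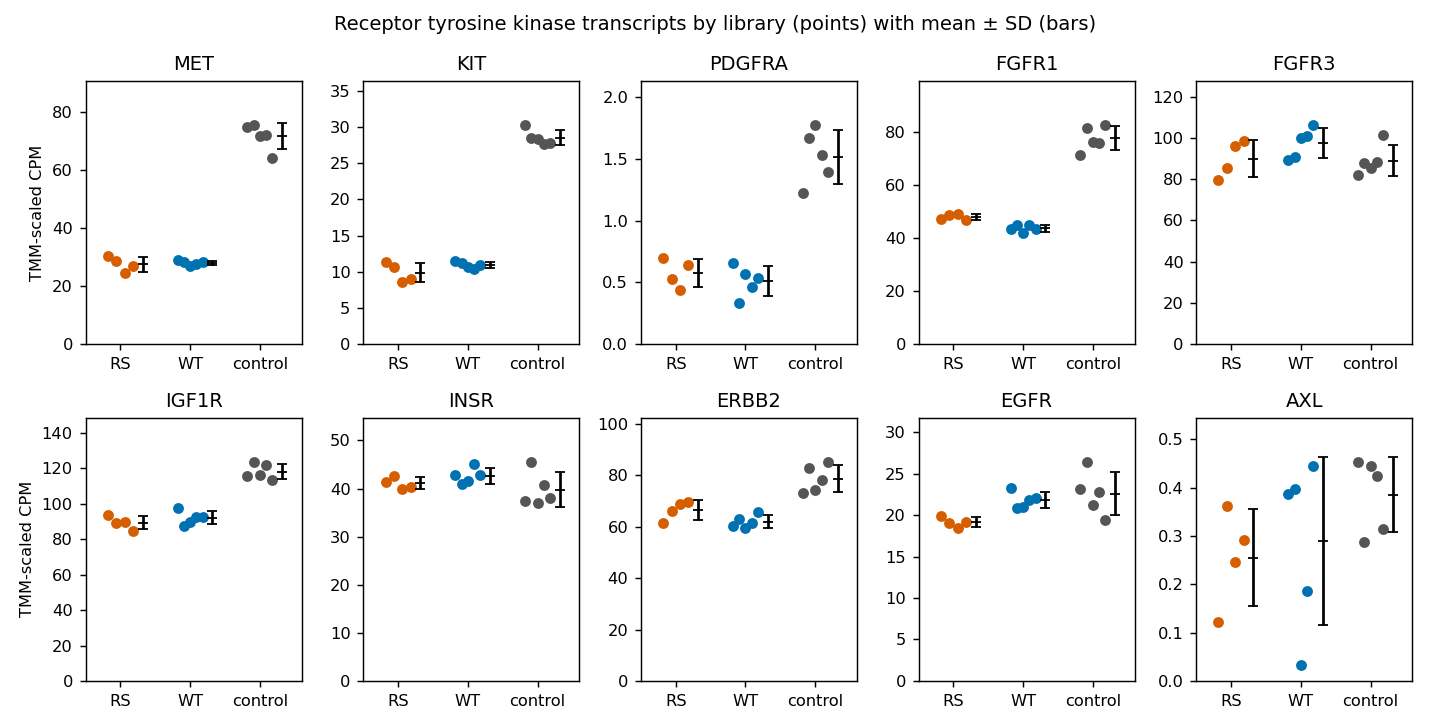
TMM-scaled CPM of each receptor in each library (points) with group mean and SD (bars), for miR-34a-RS, miR-34a-WT and control from left to right, each vertical axis starting at 0. Control libraries stand above all others for MET, KIT, PDGFRA, FGFR1, IGF1R and ERBB2, and overlap them for FGFR3, INSR, EGFR and AXL.

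The size of the fall can be set beside the seed match of each receptor. Of the 6 receptors with an 8mer or 7mer-m8, KIT, MET, PDGFRA and FGFR1 fell with each duplex, and INSR and AXL did not pass. Both receptors with 6mers fell with each duplex. Of the 2 without a match, neither passed with miR-34a-WT, and EGFR fell with miR-34a-RS. Over all tested genes with a CCDS 3′ UTR, the share that fell was 51.8% with miR-34a-RS and 54.3% with miR-34a-WT for genes with an 8mer, 37.8% and 42.6% for those whose best match was a 7mer-m8, 29.6% and 31.8% for a 6mer, and 13.97% and 17.1% for none. The median log2 fold change of 7mer-m8 genes was -0.11 with miR-34a-RS and -0.13 with miR-34a-WT, and its lowest 10% lay below -0.69 with miR-34a-WT. MET and PDGFRA, with -1.36 and -1.58, therefore stand in the outer tail of their own class, and INSR, at 0.10, lies above its median. With the longest annotated 3′ UTRs, 19.8% of 13653 tested genes held an 8mer or 7mer-m8, ERBB2 among them, and the share that fell was 47.0% with miR-34a-RS and 50.1% with miR-34a-WT for genes with an 8mer.

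**Figure D3:**
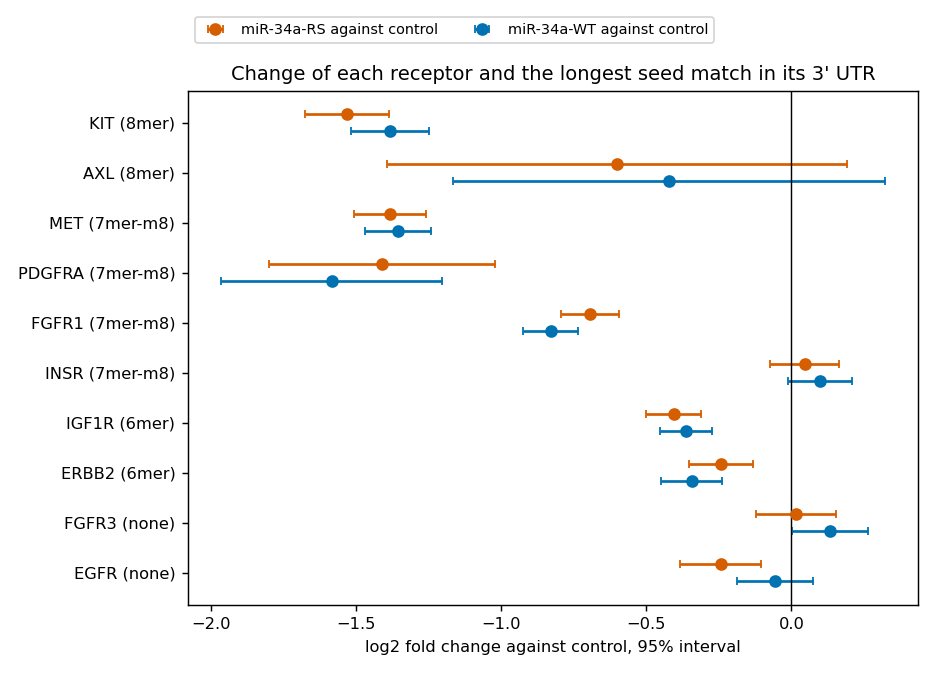
Log2 fold change against control of each receptor with its 95% interval, miR-34a-RS above miR-34a-WT, ordered by the longest seed match in the CCDS 3′ UTR. KIT, MET and PDGFRA lie between -1.36 and -1.58, and INSR with a 7mer-m8 lies near 0. The AXL intervals are wide, from -1.39 to 0.19 with miR-34a-RS and from -1.17 to 0.32 with miR-34a-WT.

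The comparison of miR-34a-RS with miR-34a-WT asks what the bases at guide positions 13 and 14 add. None of the 10 receptors passed the main edgeR test, which does not pair the libraries by replicate number. Of all tested genes 1.56% passed it (1.03% higher and 0.535% lower). None of the 10 passed with DESeq2 or limma voom. FGFR1 and EGFR had an unadjusted p under 0.05, and the share of all tested genes at that threshold was not counted. The MET difference was -0.03 (95% interval -0.15 to 0.10, adjusted p = 0.921) on the log2 scale, and that of KIT was -0.15 (-0.30 to 0.01, adjusted p = 0.436). Both intervals are narrow beside the falls of over 1.3 against control. FGFR1 was 0.14 higher with miR-34a-RS (SE 0.05, adjusted p = 0.207) and EGFR 0.19 lower (SE 0.07, adjusted p = 0.215), both without overlap of the libraries. The share of all tested genes without such overlap was not counted. With the replicate number as a block, which the data pair in this comparison, FGFR1 passed at 0.14 (SE 0.04, adjusted p = 0.0453), the only one of the 10 to do so. The block also raised the calls over all tested genes, to 625 higher and 629 lower, against 188 and 98 without it. These counts also rest on single libraries, and were 391 and 339 without miR-34a-RS replicate 1, and 111 and 31 without miR-34a-RS replicate 3.

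PDGFRA and AXL carry the supplementary motif that pairs with the replaced residues. Their differences between the duplexes were 0.17 for PDGFRA (95% interval -0.30 to 0.64, adjusted p = 0.837) and -0.18 for AXL (-1.02 to 0.66, adjusted p = 0.922). At their read numbers a difference of up to 0.64 for PDGFRA lies inside the interval, so a contribution of these 2 residues was not detectable. The remaining differences were 0.10 for ERBB2 (-0.01 to 0.21), -0.12 for FGFR3 (-0.25 to 0.02), -0.04 for IGF1R and -0.05 for INSR.

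**Figure D4:**
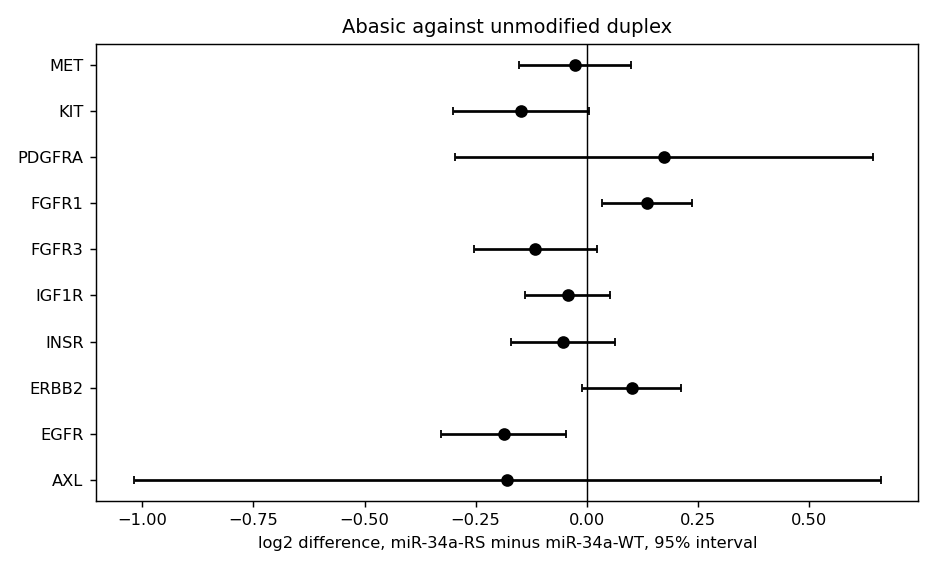
Log2 difference of each receptor, miR-34a-RS minus miR-34a-WT, with its 95% interval from the fit without a replicate block. The intervals of FGFR1 (0.03 to 0.24) and EGFR (-0.33 to -0.05) exclude 0 before adjustment over all genes, and those of PDGFRA and AXL are the widest.

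Of 48 other receptor tyrosine kinases, 38 were tested. With miR-34a-RS 8 rose and 11 fell, and with miR-34a-WT 6 rose and 14 fell, with medians of -0.07 and -0.08. Among all tested genes 16.2% rose and 18.4% fell with miR-34a-RS, and 18.9% rose and 21.3% fell with miR-34a-WT. Of the 8 with an 8mer or 7mer-m8, 1 rose and 4 fell with miR-34a-RS, and 6 fell and none rose with miR-34a-WT. The 2 whose best match was a 7mer-A1 or 6mer, RYK with a 6mer among them, rose with each duplex. Of 28 without a match 5 rose and 7 fell with miR-34a-RS, and 4 rose and 8 fell with miR-34a-WT. NTRK2, the receptor of brain-derived neurotrophic factor, fell to 1.10 CPM with miR-34a-RS and 1.24 CPM with miR-34a-WT, against 2.89 CPM in control (log2 fold changes of -1.41 and -1.25). It holds a 7mer-m8. ERBB3, a partner of ERBB2 that binds neuregulins, fell by 0.58 with miR-34a-RS and by 0.69 with miR-34a-WT on the log2 scale and holds no match. RYK, a Wnt receptor with an inactive kinase domain, rose by 0.48 with miR-34a-RS and 0.52 with miR-34a-WT.

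EPHB2 is a receptor of ephrin-B ligands that guides axons and cell sorting. In the main fit EPHB2 was the 1 receptor tyrosine kinase that differed between the duplexes. It had 19.5, 19.6, 19.3 and 18.3 CPM with miR-34a-RS and 12.1, 13.5, 13.1, 13.2 and 14.6 CPM with miR-34a-WT, against 25.1, 27.2, 25.4, 24.4 and 25.5 CPM in control. The 3 groups did not overlap, with miR-34a-RS between the other 2. EPHB2 fell by 0.41 with miR-34a-RS (SE 0.06, adjusted p = 2.33e-06) and by 0.94 with miR-34a-WT (SE 0.06, adjusted p = 5.98e-13), a difference of 0.53 (SE 0.06, adjusted p = 4.79e-06). Its CCDS 3′ UTR holds an 8mer, a 7mer-m8 and 3 6mers, and neither the 8mer nor the 7mer-m8 has AGCT in range. With the replicate block FGFR1 passed between the duplexes as well.

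**Figure D5:**
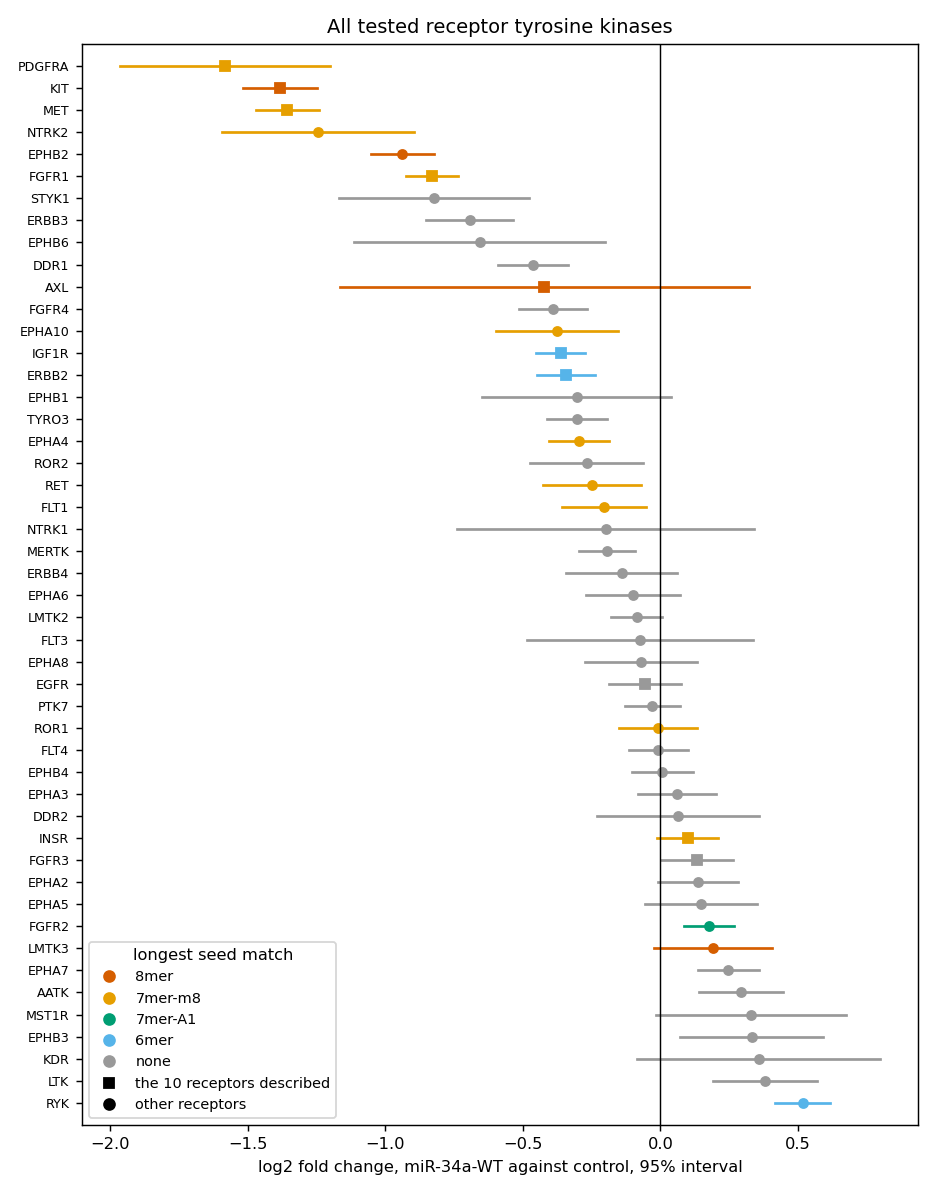
Log2 fold change with its 95% interval, miR-34a-WT against control, of all 48 tested receptor tyrosine kinases, coloured by the longest match in the CCDS 3′ UTR, with squares for the 10 receptors described. PDGFRA, KIT and MET are the 3 lowest values, followed by NTRK2 and EPHB2.

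Ligands of the 10 receptors were mostly silent or low, with 14 of 27 tested. None rose with either duplex and 7 fell with each, with medians of -0.26 with miR-34a-RS and -0.25 with miR-34a-WT. Of all tested genes, 16.2% rose and 18.4% fell with miR-34a-RS, and 18.9% rose and 21.3% fell with miR-34a-WT. No tested ligand was higher with either duplex at an unadjusted p under 0.05. KITLG, the ligand of KIT, fell to 27.2 ± 2.87 CPM with miR-34a-RS (n = 4) and 24.8 ± 1.87 CPM with miR-34a-WT, against 32.1 ± 1.06 CPM in control (n = 5 each), log2 fold changes of -0.24 (adjusted p = 0.00455) and -0.38 (adjusted p = 1.85e-05). TGFA, a ligand of EGFR, fell to 0.711 CPM with miR-34a-RS and 0.548 CPM with miR-34a-WT, against 1.40 CPM in control. FGF9 fell by 0.41 with miR-34a-RS and by 0.44 with miR-34a-WT. FGF18, at under 1 CPM, fell by 1.30 with miR-34a-RS (adjusted p = 0.00153) and had -0.44 with miR-34a-WT (adjusted p = 0.227), and the difference between the duplexes, -0.86, did not pass (adjusted p = 0.288).

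Of 27 adaptors and docking proteins, 26 were tested. With miR-34a-RS 7 rose, 6 fell and 13 did not pass, and with miR-34a-WT 7 rose, 4 fell and 15 did not pass, where 34.6% and 40.2% of all tested genes passed. The medians were 0.01 and 0.05. GRB2, which links receptors to RAS, rose to 201 ± 3.27 CPM with miR-34a-RS and 203 ± 4.02 CPM with miR-34a-WT, against 137 ± 4.49 CPM in control. IRS1, which docks to the insulin and IGF1 receptors, fell by 0.49 with miR-34a-RS and by 0.68 with miR-34a-WT, and PIK3CB, a catalytic subunit of PI3K, by 0.46 and by 0.48. PIK3R3, a regulatory subunit of PI3K, rose by 0.32 with miR-34a-RS and by 0.52 with miR-34a-WT. In the main fit PIK3R3 was the 1 gene of the 6 signalling lists, besides EPHB2, that differed between the duplexes (-0.20, SE 0.04, adjusted p = 0.0167). That call is lost without the low-count filter (adjusted p = 0.0755). Leaving out miR-34a-RS replicate 2, 3 or 5 or miR-34a-WT replicate 3 also loses the PIK3R3 call, at adjusted p of 0.0708, 0.0676, 0.0629 and 0.0741. With the replicate block the lists hold 2 higher and 5 lower genes.

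All 18 genes that attenuate receptor signalling were tested. With miR-34a-RS 5 rose and 7 fell, and with miR-34a-WT 8 rose and 6 fell, with medians of 0.00 in both. Over all tested genes 16.2% rose and 18.4% fell with miR-34a-RS, and 18.9% rose and 21.3% fell with miR-34a-WT. FGFRL1, which binds fibroblast growth factors without a kinase domain, fell to 28.9 ± 1.81 CPM with miR-34a-RS (n = 4) and 31.9 ± 2.03 CPM with miR-34a-WT, against 58.9 ± 4.33 CPM in control (n = 5 each). CBL, a ubiquitin ligase that sends active receptors to degradation, fell by 0.30 with miR-34a-RS and by 0.42 with miR-34a-WT. GRB10, which dampens insulin and IGF1 receptor signalling, fell by 0.27 and by 0.32, while LRIG3, a membrane protein of the LRIG family, rose by 0.22 and 0.32.

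Of 18 co-receptors and processing proteases, 12 were tested. With miR-34a-RS 1 rose and 5 fell, and with miR-34a-WT 2 rose and 5 fell. The shares of all tested genes that rose and fell were 16.2% and 18.4% with miR-34a-RS, and 18.9% and 21.3% with miR-34a-WT. SDC1, a heparan sulfate proteoglycan, fell to 9.58 CPM with miR-34a-RS and 9.50 CPM with miR-34a-WT, against 19.6 CPM in control (log2 fold changes of -1.04 and -1.05). FURIN, a protease that cleaves the precursors of MET, IGF1R and INSR, fell by 0.50 with miR-34a-RS and by 0.58 with miR-34a-WT. NRP1, a co-receptor of semaphorins and growth factors, rose by 0.31 and 0.39. GPC1, a glypican, fell by 0.31 and by 0.42.

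All 12 transcripts listed as responding to ERK signalling were tested. With miR-34a-RS 2 rose, 2 fell and 8 did not pass, and with miR-34a-WT 4 rose, 1 fell and 7 did not pass, shares near the 34.6% and 40.2% of all tested genes that passed. The medians were -0.10 and -0.09. ETV1 rose by 0.69 with miR-34a-RS and 0.77 with miR-34a-WT, and ETV5 by 0.67 and 0.87. These genes encode transcription factors of the PEA3 family. ETV4, the third member, rose by 0.44 with miR-34a-WT (adjusted p = 0.0107) and had 0.28 with miR-34a-RS (adjusted p = 0.129). FOSL1, a partner of JUN in the AP-1 factor, fell by 0.75 with miR-34a-RS and by 0.91 with miR-34a-WT at about 1 CPM in control, and holds 2 8mers. The lists were drawn up with earlier results of these data known, so their counts are descriptions.

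Genes with a pattern most like that of MET and KIT were ranked by the root mean square difference of log2 CPM, each relative to its control mean, over the 9 miRNA libraries and 11259 genes of at least 5 CPM. For MET the nearest were HMGN4, a nucleosome-binding protein (0.0647), AMER1, a Wnt pathway regulator (0.0847), and CTDSPL, a phosphatase (0.102). For KIT they were HMGN4 (0.0874), MET (0.112) and RDH11, a retinol dehydrogenase (0.130). HMGN4 fell by 1.42 with miR-34a-RS and by 1.36 with miR-34a-WT and has no seed match in its CCDS 3′ UTR. The best match in the CCDS 3′ UTR is an 8mer in AMER1, a 7mer-m8 in CTDSPL and a 7mer-A1 in RDH11.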

How the data were processed

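Libraries of polyadenylated RNA were made with the TruSeq RNA v2 kit, which is unstranded, per the labels' protocols. The authors deposited whole-number read counts per gene for 14 libraries. Per the submitters' processing notes, they used Subread 2.0.3 with featureCounts, STAR 2.7.11a, edgeR 3.42.4 and the build GRCh38. The annotation release and strand setting are not given in the sources used here. Of 63140 identifiers, 62541 matched a symbol and 58126 GENCODE 29.

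Tests used edgeR 4.0.16 under R 4.3.3 (TMM, filterByExpr, robust glmQLFit, glmQLFTest) in 1 fit of 3 group means over 14 libraries, with Benjamini-Hochberg adjustment over 18321 genes and a threshold of 0.05. Standard errors are the absolute log2 fold change divided by the square root of F. Intervals are at 95%. The test was tried on simulated data. CPM is scaled by TMM and length is the union of exons in GENCODE 29. limma 3.58.1 and DESeq2 1.42.0 gave alternatives, and Python 3.11.15, pandas 2.3.3, numpy 2.4.6 and matplotlib 3.10.9 the tables and figures. No 2 replicates of a group agreed within sampling noise (chi-square per degree of freedom 2.72 to 14.28 over 26 pairs).

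The 10 receptors and the gene lists were chosen with earlier results of these data known. The text names all 10, up to 4 genes of each of 6 lists with the lowest adjusted p over the comparisons, and the 3 genes most like MET and KIT. LETM2, PGAP3, MIEN1 and the cell type markers stand outside this rule. The blood cell markers and the EPHB2 site sequences are not reported here. Sites were searched in the longest annotated 3′ UTR of at least 20 bases, and, added after seeing the data, in the CCDS transcript, which the text uses.

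Replicate numbers recur in all groups. Deviations from group means over 11259 genes correlated between same-numbered miR-34a-RS and miR-34a-WT libraries at 0.37 to 0.72 (mean 0.56, others -0.13). The main fit does not use this pairing, and only the replicate block, an alternative, does. Alternatives were upper-quartile and DESeq2 size factors, no filter, DESeq2, limma voom, the replicate block, a fit of 2 groups, leaving out each library, and the transcript used for length and sites.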

Additional observations from a re-analysis of the deposited data

How the results depend on the processing

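Across 21 alternative settings no result reversed. The falls of MET, KIT, PDGFRA, FGFR1, IGF1R and ERBB2 kept their call in all settings. With the replicate block, 1 receptor (FGFR3) was higher with miR-34a-WT than control, and 1 (FGFR1) with miR-34a-RS than miR-34a-WT. The block gave 625 higher and 629 lower genes between the duplexes, and 2 higher and 5 lower list genes. Without the low-count filter 1 receptor (FGFR3) was higher with miR-34a-WT than control, and 0 list genes were lower between the duplexes. Leaving out 1 library gave 0 to 1 receptors higher with miR-34a-WT than control: INSR without control replicate 2 (0.17, adjusted p = 0.00852), FGFR3 without control replicate 5 (0.18, adjusted p = 0.0212) or miR-34a-WT replicate 2 (0.18, adjusted p = 0.0410). Between the duplexes it gave 111 to 391 higher and 31 to 339 lower genes (most without miR-34a-RS replicate 1, fewest without miR-34a-RS replicate 3), and 1 to 2 higher and 0 to 3 lower list genes. Lower genes between the duplexes were 230 with DESeq2 and 60 in the fit of 2 groups. Seed matches of 8mer and 7mer-m8 over the receptors were 12 in the longest 3′ UTRs, 12 over all annotated 3′ UTRs and 8 in CCDS transcripts. With the longest transcript as length, control levels were 20.05 (FGFR3), 15.98 (ERBB2), 12.5 (FGFR1), 9.67 (IGF1R), 5.50 (KIT), 4.44 (INSR), 2.30 (EGFR) and 0.231 (PDGFRA) CPM per kb. The cause of these shifts was not tested. Depth limits AXL and PDGFRA, at 1 to 15 and 10 to 60 reads per library. Between each duplex and control the replicate numbers paired the libraries only in part. Same-number correlations were -0.16 to 0.56 with miR-34a-WT (mean 0.29, others -0.07). With miR-34a-RS their mean was 0.27 (others -0.07).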

Other observations

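Of the 9 markers of the line, 1 rose and 3 fell with miR-34a-RS, and 1 rose and 4 fell with miR-34a-WT. The shares of all tested genes that rose and fell were 16.2% and 18.4% with miR-34a-RS, and 18.9% and 21.3% with miR-34a-WT. The neuronal intermediate filament genes, which HEK293T cells express, were lower with both duplexes. INA had 40.6 ± 3.07 CPM with miR-34a-RS (n = 4) and 39.0 ± 2.83 CPM with miR-34a-WT, against 63.4 ± 2.36 CPM in control (n = 5 each). NEFL fell by 0.52 (SE 0.06) with miR-34a-RS and by 0.57 (SE 0.05) with miR-34a-WT on the log2 scale, and NEFM by 0.40 (SE 0.07) and by 0.47 (SE 0.07). KRT8, a keratin of simple epithelia, rose by 0.43 with miR-34a-RS (SE 0.09, adjusted p = 3.84e-04) and had 0.17 with miR-34a-WT (SE 0.09, adjusted p = 0.120). The KRT8 difference between the duplexes, 0.26, did not pass (adjusted p = 0.158). PAX2, a kidney transcription factor, fell by 0.39 with miR-34a-WT (adjusted p = 0.0488) and had -0.21 with miR-34a-RS (adjusted p = 0.328). CDH2, which encodes N-cadherin, rose by 0.11 with miR-34a-WT (adjusted p = 0.0390) and had 0.09 with miR-34a-RS (adjusted p = 0.108). ENO2, VIM and KRT18 passed no test. Adjusted p-values are from the edgeR fit over all tested genes.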
